A study of Mus musculus with 9 samples.

Results

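In the sebaceous gland of mouse tail skin, 818 exon-array probe sets stood apart from the rest of their gene, relative to both the hair follicle and the interfollicular epidermis. A probe set is a small group of array probes that reads a single stretch of a gene, usually an exon. Its index is its log2 signal minus the median log2 signal of all probe sets of that gene on the same array. The 818 were 379 with a higher and 439 with a lower index in the gland, and they lay in 650 genes. They came from 89440 eligible probe sets in 6016 genes, of 154736 probe sets in all, so 0.915% of the eligible probe sets were members, 0.424% higher and 0.491% lower. An eligible probe set carried a single gene symbol, in a gene with 6 or more probe sets and a median log2 signal of 7 or more in each compartment. A member differed in mean index from both other compartments by 1 or more in the same direction, which is a 2-fold difference relative to the gene, and its 3 gland arrays all lay beyond the other 6. These measured values chose the members, so the members' differences between the gland and the other compartments, and those of their genes, are given below as a description without a test. Tests are given only for genes that hold no member, for marker lists that check the labels, and for the contrast of the other compartments with each other. A few counts over whole lists of splicing and cleavage factors also take in genes with members, and this is said there.

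The study set the sebaceous gland (SG) against the hair follicle (HF) and the interfollicular epidermis (IFE). All 3 were taken by hand microdissection from tail skin epidermis; the donors were adult female mice, wild type, of a C57BL6/CBA strain background. The 9 samples thus share genotype, sex, strain background and tissue, the labels name no agent, and an age in weeks or months is not stated in the labels. Each sample pooled many dissected pieces of a compartment, with 3 biological replicates per compartment, so cell types within a piece were not separated. Total RNA was amplified, converted to sense-strand cDNA and hybridised to a mouse exon array.

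Most mammalian genes can join their exons in more than a single way, start transcription at more than a single promoter or end it at more than a single site. When the mixture of transcripts changes between tissues, probe sets of the affected exons move apart from those of the rest of the gene, which is what an exon array was built to show. Sebocytes, the cells of the sebaceous gland, fill with lipid and burst to release sebum, whereas the hair follicle builds the hair shaft and its sheaths and the interfollicular epidermis builds the cornified surface. The label under which these probe sets were gathered speaks of exons used differently. The values below show that the index also moved where a gene changed around a probe set that kept its level. Whether exon use differed was not tested for those or for the other members.

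The deposited signal had array medians between 176 and 234. Marker lists followed the sample titles, although the array names in the descriptions named another compartment on 9 of 9 arrays. The 18 measured sebocyte markers had a log2 level 2.21 higher on the SG arrays than elsewhere (p = 0.0119 in an exact permutation test, two-sided). That is the smallest p that 84 splits can give, and the permutation test's adjusted p was 0.0595 over 30 pairs of list and compartment. Of these 18 genes, 5 hold members, so the rule used levels that also enter this test. The 3 SG arrays were not close to each other in index: across eligible probe sets SG replicates 1 and 2 correlated at 0.881, 1 and 3 at 0.880, and 2 and 3 at 0.907, and SG replicate 3 correlated at up to 0.923 with an array of another compartment. SG replicate 3 stood apart from the other SG arrays in its hair markers. The mean log2 level of 13 hair shaft and inner root sheath markers was 7.24 and 7.39 on SG replicates 1 and 2 and 9.93 on SG replicate 3, against 11.25 to 11.94 on the HF arrays and 6.56 to 6.60 on the IFE arrays. Of the SG arrays, SG replicate 3 was nearest to the other compartments in 239 of the 379 higher and 251 of the 439 lower members. The same rule without that array gave 2053 members, 803 higher and 1250 lower, which held 332 of the higher and 379 of the lower members; the share of hair follicle material in these differences was not tested.

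The sequences of the array's probes and the positions of its probe sets are not analysed here, so no member can be placed in a named exon. Promoters are shown instead for the genes with the largest lower and the largest higher member, Pank1 and Rtn4, because both have several RefSeq transcription starts and a probe set may lie downstream of some starts only. Each sequence is 300 bases long and spans the start, mostly upstream of it, 5′ to 3′ on the gene's strand, from RefSeq on GRCm38.p6. Capitals mark matches to 3 motifs on either strand. The first, TATAAA, is the core that fixes where transcription begins at some promoters. The second, CCAAT, is a common binding motif of the factor NF-Y. The third, GGGCGG, is a common binding motif of the factors of the Sp family. No match overlapped another.
Pank1 start 1 (chr19:34879406-34879705, minus strand): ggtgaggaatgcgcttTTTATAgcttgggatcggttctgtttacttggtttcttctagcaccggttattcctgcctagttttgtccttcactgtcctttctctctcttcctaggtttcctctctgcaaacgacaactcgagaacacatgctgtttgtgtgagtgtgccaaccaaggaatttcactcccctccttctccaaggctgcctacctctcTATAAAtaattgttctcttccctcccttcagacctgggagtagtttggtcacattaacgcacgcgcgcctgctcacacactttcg
Pank1 start 2 (chr19:34877868-34878167, minus strand): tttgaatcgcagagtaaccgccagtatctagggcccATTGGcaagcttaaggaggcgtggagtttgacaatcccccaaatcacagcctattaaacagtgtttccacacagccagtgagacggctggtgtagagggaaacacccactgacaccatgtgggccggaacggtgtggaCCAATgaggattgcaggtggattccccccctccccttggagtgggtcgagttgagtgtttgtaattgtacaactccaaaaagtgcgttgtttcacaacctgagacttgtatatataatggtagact
Rtn4 start 1 (chr11:29692648-29692947, plus strand): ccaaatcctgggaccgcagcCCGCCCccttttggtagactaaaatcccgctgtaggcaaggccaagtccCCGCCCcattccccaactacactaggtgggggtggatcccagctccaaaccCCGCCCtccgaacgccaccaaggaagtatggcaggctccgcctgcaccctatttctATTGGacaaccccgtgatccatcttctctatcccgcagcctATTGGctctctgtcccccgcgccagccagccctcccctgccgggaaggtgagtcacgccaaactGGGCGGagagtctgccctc
Rtn4 start 2 (chr11:29693524-29693823, plus strand): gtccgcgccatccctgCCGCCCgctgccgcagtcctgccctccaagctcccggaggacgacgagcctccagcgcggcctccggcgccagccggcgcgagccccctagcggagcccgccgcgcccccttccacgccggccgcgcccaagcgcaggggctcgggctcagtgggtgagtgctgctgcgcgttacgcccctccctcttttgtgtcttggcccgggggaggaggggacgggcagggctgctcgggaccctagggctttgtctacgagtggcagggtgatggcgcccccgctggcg
Rtn4 start 3 (chr11:29718313-29718612, plus strand): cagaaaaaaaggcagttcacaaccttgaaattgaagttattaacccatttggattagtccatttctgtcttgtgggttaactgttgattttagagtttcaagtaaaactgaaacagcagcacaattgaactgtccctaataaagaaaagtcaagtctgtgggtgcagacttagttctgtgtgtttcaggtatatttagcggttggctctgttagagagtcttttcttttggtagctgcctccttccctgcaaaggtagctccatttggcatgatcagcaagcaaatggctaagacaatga
The first Pank1 window held 2 matches to the first motif and the second Pank1 window held 2 to the second motif. The first Rtn4 window held 2 matches to the second and 4 to the third motif, the second window 1 to the third motif, and the third window none of these letters. The GC content of the Rtn4 windows was 62.3%, 75.3% and 39.7% in the order of the starts, against 48.0% and 49.7% in Pank1. Among 32851 mouse promoters of the same length, 13.62% held the first motif, 37.41% the second and 35.66% the third. Of the 650 genes with members, 516 matched this promoter table and 120 of these (23.26%) had several starts, against 974 of 4383 matched eligible genes without members (22.22%).

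The members differed from both other compartments mostly by little more than the threshold. The smaller of a member's differences in index had a median of 1.17 for the higher members, up to 3.00, and a median of -1.21 for the lower members, down to -2.62. Only 8 higher and 23 lower members differed by 2 or more. Just inside the threshold were probe sets of Plxdc2 (-1.0003), Col1a2 (1.0003) and Sh3rf2 (1.0004), and just outside it were probe sets of Map6 (-0.997), Ptk2b (0.999) and Vps39 (-0.9998). Without the threshold on size, 8059 eligible probe sets (9.01%) had all 3 SG arrays beyond the other 6. Most genes had a single member (516 of 650), 112 had 2, and 22 had 3 or more. Genes with members had a median of 17 probe sets, against 12 for all eligible genes.

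An index can differ because the probe set differs, because the rest of its gene differs, or both, and the members divided unevenly among these. Among the lower members, 352 of 439 (80.2%) had their own log2 signal lower in SG than in both other compartments by 1 or more. Among the higher members, only 87 of 379 (23.0%) had their own signal higher by that much. In 193 of the higher members (50.9%) the gene's median was lower in SG than in both other compartments by 0.5 or more, against 14.5% of all eligible probe sets. In 100 of the lower members (22.8%) the gene's median was likewise lower in SG by that much, and in 43 (9.79%) it was higher. It was higher by that much in 9 of the higher members (2.37%) and in 2.07% of eligible probe sets. Counted another way, the probe set stayed within 0.5 of its level in HF and IFE in 100 higher and 22 lower members, the gene did so in 85 higher and 160 lower members, and both moved in 194 and 257. Without SG replicate 3, the own signal differed by 1 or more in 18.9% of the higher and 85.4% of the lower members. The limits of 0.5 and 1 on these levels were chosen after the values were seen, and the median eligible gene was itself lower in SG, by 0.10 against HF and 0.30 against IFE. The own-signal and near-level counts are given without the same share over all eligible probe sets. The rule on the index also shapes them, so they describe the members and are not read as a trait particular to them.

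**Figure D1:**
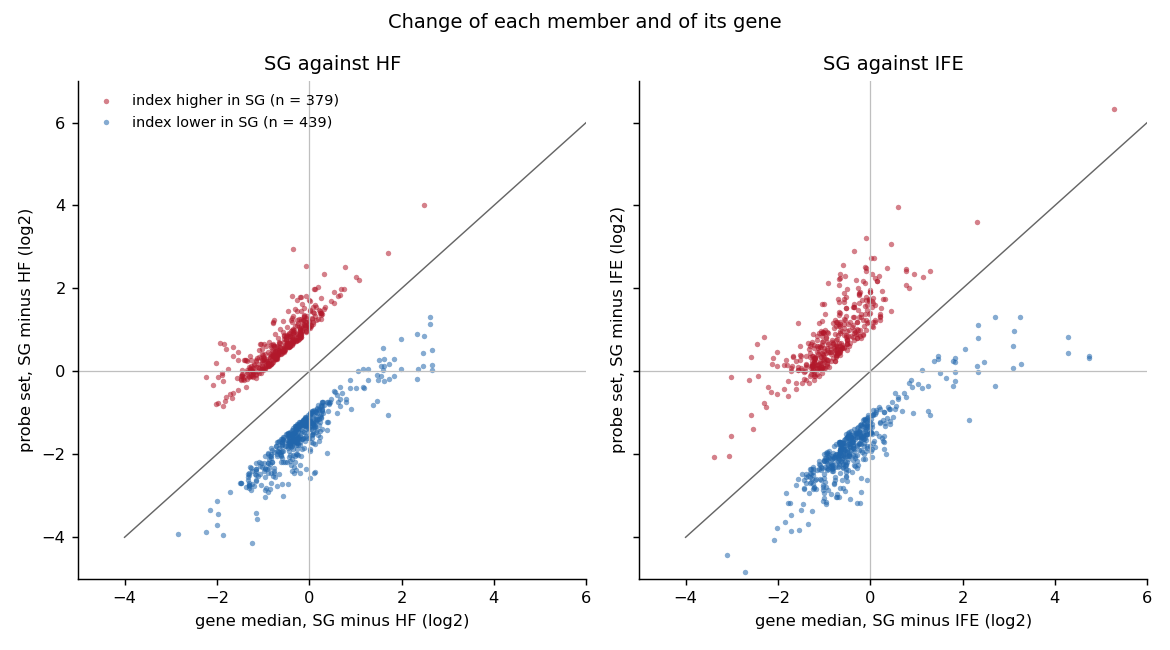
For each of the 818 members, the log2 difference of the probe set (vertical axis) is plotted against the log2 difference of its gene's median (horizontal axis), for SG minus HF (left) and SG minus IFE (right); the diagonal marks equal change. The 439 lower members (blue) lie below the diagonal, most with a probe set difference under 0, while many of the 379 higher members (red) lie near a probe set difference of 0 with a gene difference under 0.

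Some members were dim, and some lay far from the rest of their gene in both HF and IFE. A probe set was counted as dim when its highest compartment mean was under a log2 signal of 6.99, the 25th percentile of all probe sets, which is a signal of 127. This held for 56 higher (14.8%) and 86 lower members (19.6%), against 12.0% of eligible probe sets. The index was 2 or more away from 0 in both HF and IFE in 16.0% of members, against 8.77% of eligible probe sets. The members also varied more between arrays of a compartment, with a median standard deviation of the index of 0.407 against 0.303 over eligible probe sets.

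The largest lower members included probe sets of lipid and metabolic genes that kept their level while the gene was far higher in the gland. Pank1 encodes a pantothenate kinase, the enzyme of the first step of coenzyme A synthesis. Probe set 4840694 of Pank1 read 7.94, 7.55 and 7.90 on the SG arrays, 7.87, 7.72 and 7.69 on the HF arrays, and 7.65, 7.51 and 7.72 on the IFE arrays (log2 signal). The Pank1 gene median read 11.15, 10.82 and 10.17 in SG, 7.87, 8.58 and 7.69 in HF, and 6.85, 7.76 and 7.72 in IFE. The probe set thus overlapped among all compartments, while the gene's SG arrays lay above the other 6 and all 6 other Pank1 probe sets were higher in SG than in both by 1 or more. Its index was lower in SG by 2.62 against HF and by 3.09 against IFE.

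Echdc1, an ethylmalonyl-CoA decarboxylase that removes an abnormal side product of fatty acid synthesis, gave the same picture at a bright level. Its probe set 5482092 read 10.25, 10.16 and 10.16 in SG, 10.50, 10.25 and 10.34 in HF, and 10.23, 10.87 and 10.51 in IFE. The gene median of Echdc1 read 10.45, 10.57 and 10.25 in SG, and between 7.28 and 8.73 on the other 6 arrays. All 6 Echdc1 probe sets that were not members were higher in SG by 1 or more against both.

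Mgll, the lipase that splits monoacylglycerols, had 2 lower members. Probe set 5281535 of Mgll read 7.10, 7.59 and 7.34 in SG, 7.42, 6.54 and 7.68 in HF, and 7.01, 7.15 and 6.92 in IFE. The Mgll gene median was 11.98, 12.24 and 12.03 in SG, 9.30, 10.06 and 9.46 in HF, and 7.03, 7.44 and 7.55 in IFE. The gene's order was thus SG, HF, IFE with no overlap, and the probe set showed no such order.

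Plin2, the coat protein of lipid droplets, also had 2 lower members, 5414569 and 4466792. The first was dim, at 7.20, 6.18 and 6.23 in SG and 5.78 to 6.47 on the other 6 arrays, while the Plin2 gene median was 11.79, 12.32 and 11.76 in SG and 7.25 to 10.09 elsewhere. The second read 8.38, 8.27 and 8.17 in SG, 7.95, 7.85 and 7.47 in HF, and 7.30, 7.70 and 7.35 in IFE, so it was higher in the gland, but by less than its gene.

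For other large lower members the probe set itself was far lower in the gland. Otub2, a deubiquitinase, read 6.23, 6.18 and 9.45 in SG at probe set 4631348, 11.43, 11.23 and 11.57 in HF, and 10.52, 9.94 and 10.46 in IFE. The SG arrays did not overlap with the others, and SG replicate 3 lay closest to them. The Otub2 gene median moved the same way by less, from 6.74, 7.44 and 8.32 in SG to 8.75, 8.69 and 8.73 in HF and 8.35, 8.13 and 8.26 in IFE.

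Zdhhc20, a palmitoyltransferase, read 3.10, 3.88 and 5.91 in SG at probe set 5041637, 7.29, 7.30 and 7.32 in HF, and 6.71, 7.72 and 6.90 in IFE. Its gene median lay between 8.31 and 8.92 in SG and between 9.06 and 9.42 on the other arrays. The probe set thus spanned 2.81 across the SG arrays, where the gene spanned far less.

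Vps25, a subunit of the ESCRT machinery that sorts membrane proteins, kept its gene level and lost signal at probe set 4794385. That probe set read 5.09, 2.13 and 5.83 in SG, 7.31, 6.77 and 6.25 in HF, and 7.48, 7.10 and 7.19 in IFE. The Vps25 gene median was 10.13, 10.83 and 10.91 in SG, within the 10.32 to 11.00 of the other arrays but for the first SG array. The size of the difference rested in part on the single low value of SG replicate 2.

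Eps8l3 probe set 4774670, in a gene of the EPS8-like adaptor family, and Brpf3 probe set 4485555, in a chromatin reader of histone acetyltransferase complexes, had the same low SG replicate 2. Eps8l3 read 5.32, 2.86 and 5.85 in SG and 6.89 to 7.56 on the other 6 arrays. Brpf3 read 4.70, 1.88 and 5.89 in SG and 6.31 to 7.92 on the other 6 arrays. In both genes the gene median differed between SG and the other compartments by less than 0.5.

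Arel1, a ubiquitin ligase, was dim at probe set 4397108, with 3.37, 3.02 and 2.79 in SG against 5.52 to 6.50 elsewhere. Pltp, the phospholipid transfer protein, went opposite ways at its 2 levels. Probe set 5564211 of Pltp read 9.18, 9.22 and 9.71 in SG, below the 10.0001 to 10.67 of the other 6 arrays, while the Pltp gene median read 8.64, 9.12 and 9.35 in SG, above the 7.41 to 7.94 of the others. Sec14l4, a lipid-binding protein of the Sec14 family, read 9.99, 9.88 and 10.78 in SG at probe set 5533106, 11.29, 11.40 and 11.12 in HF, and 10.08, 10.003 and 10.16 in IFE, while its gene median was higher in SG than in HF by 1.70 and than in IFE by 2.31.

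**Figure D2:**
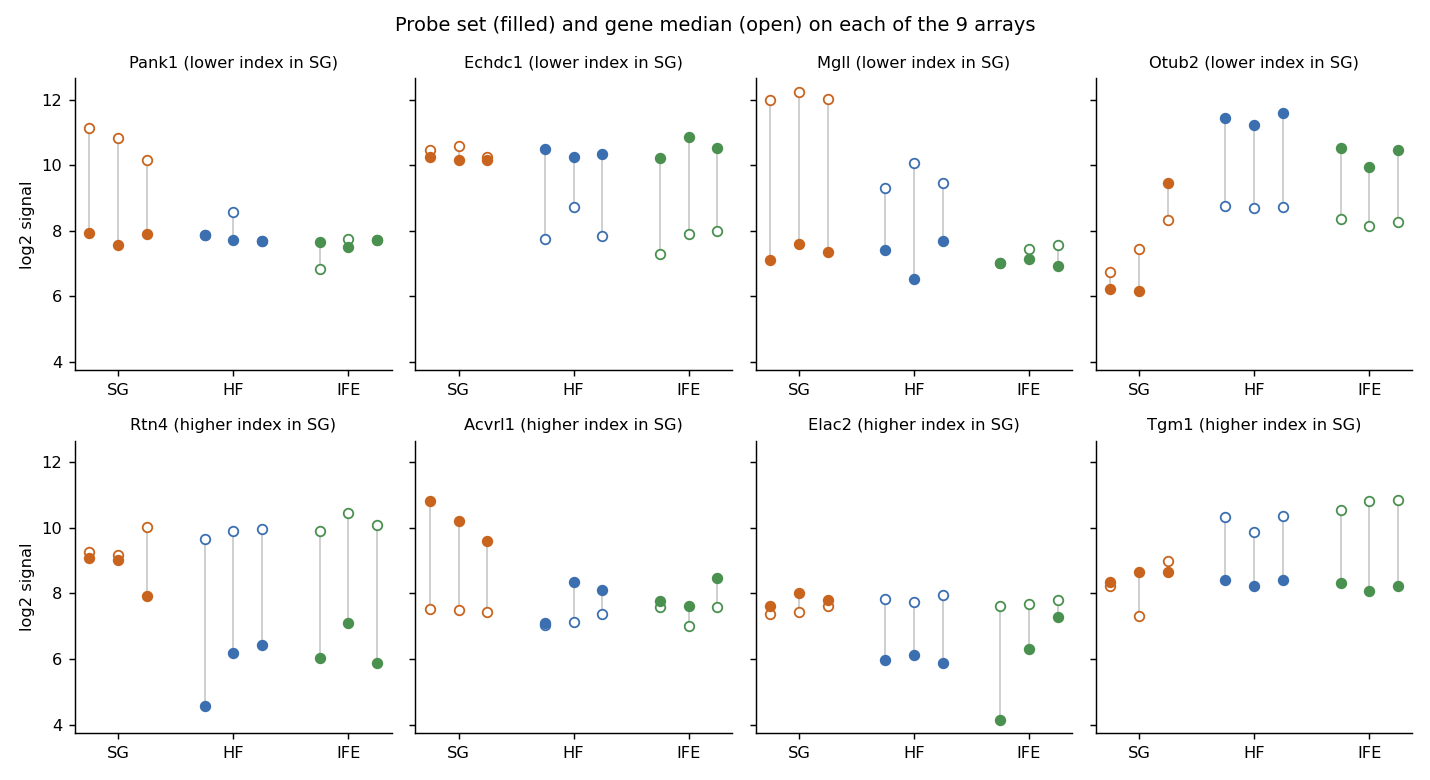
Log2 signal of 8 members (filled circles) and of their gene's median (open circles) on each of the 9 arrays, with a grey line between the values of an array; the vertical axis is log2 signal and the arrays are grouped by compartment in replicate order. In Pank1, Echdc1 and Mgll the filled circles keep their level while the open circles are higher in SG, in Otub2 the filled circles are lower in SG, in Rtn4 and Acvrl1 the filled circles are higher in SG, and in Tgm1 the open circles are lower in SG while the filled circles stay near 8.36.

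Lipid genes made up 17 of the members, and 15 of these were lower. They came from 1053 eligible probe sets of a list of lipid metabolism genes, a share of 1.61% against 0.915% of all eligible probe sets. The levels of the list's 12 genes with members were used by the rule and are left out of the next counts. Of its 101 other measured genes, 31 were higher in SG than in HF and 7 lower, and 25 were higher and 20 lower than in IFE (called in limma with a log2 difference of at least 1 and an adjusted p under 0.05). Of all 14543 genes, 1.82% were higher and 3.31% lower than in HF, and 2.55% higher and 6.97% lower than in IFE. A shorter list of sebocyte markers had 9 members among 139 eligible probe sets (6.47%), 8 of them lower. Of its 13 measured genes without members, 11 were higher and 0 lower in SG than in HF, and 10 were higher and 2 lower than in IFE.

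Cat encodes catalase and had a gene median higher in SG by 1.84 against HF and 1.80 against IFE. Its member 5573358 read 7.27, 7.20 and 7.17 in SG and 7.12 to 7.69 on the other 6 arrays, so it did not differ by more than 0.5 from either. Of the 16 Cat probe sets that were not members, 14 were higher in SG by 1 or more.

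Scd1 makes monounsaturated fatty acids for sebum. Member 5229129 of Scd1 read 9.01, 8.34 and 9.56 in SG, 8.91, 9.16 and 9.18 in HF, and 9.86, 10.30 and 10.28 in IFE, while the gene median was 12.69, 13.01 and 12.78 in SG and 10.36 to 11.61 on the others. Mgst1, a microsomal glutathione transferase, read 8.27, 7.04 and 6.91 at member 4543748 in SG and 6.16 to 7.01 elsewhere, with a gene median higher in SG by 2.50 against HF and 3.11 against IFE. Fasn, the fatty acid synthase, read 9.42, 9.68 and 9.60 at member 5214679 in SG and 9.36 to 10.36 elsewhere, with a gene median higher in SG by 1.18 and 1.25. In all 3 genes the member was behind its gene in the gland, but not alike: the Mgst1 member was itself higher in SG by 0.86 against HF and 0.97 against IFE, and in Fasn only 20 of the 51 probe sets that were not members were higher by 1 or more against both.

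Acsl3, an acyl-CoA synthetase, had 2 lower members of another kind. Their mean log2 signal in SG was 5.70 and 6.02, against 9.40 and 9.15 in HF and 7.95 and 7.99 in IFE, and the Acsl3 gene median was 7.22 in SG, 9.21 in HF and 8.03 in IFE. Here the gene and its members were lower in the gland together, the members by more.

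Aloxe3, a lipoxygenase of the skin barrier, read 5.19, 3.48 and 3.73 in SG at member 4581859, 5.47, 6.63 and 6.38 in HF, and 8.19, 9.57 and 9.18 in IFE. Its gene median was near 7 in SG and HF and between 9.32 and 9.97 in IFE. The other lower lipid members were in Acox3 (2), a second Cat probe set, and Cyp51, a sterol demethylase. The 2 higher lipid members were in Sc5d, a desaturase of cholesterol synthesis, and Abca12, the lipid transporter of the skin barrier. Sc5d and Abca12 both had gene medians lower in SG than in HF and IFE.

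Among the higher members, Rtn4 had the largest difference, and there the probe set itself was higher. Rtn4 encodes a reticulon that shapes the endoplasmic reticulum, and its Nogo isoforms arise from alternative promoters and splicing. Probe set 4959098 of Rtn4 read 9.07, 9.03 and 7.93 in SG, 4.57, 6.18 and 6.43 in HF, and 6.02, 7.10 and 5.89 in IFE. The SG arrays lay above the other 6, with SG replicate 3 closest to them. The Rtn4 gene median read 9.27, 9.18 and 10.02 in SG, 9.67, 9.89 and 9.97 in HF, and 9.90, 10.45 and 10.09 in IFE, which overlapped. The index of the probe set was higher in SG by 3.31 against HF and by 3.00 against IFE. The promoter windows of Rtn4 printed above cannot be tied to this probe set, whose position is not analysed here.

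Acvrl1, a receptor of the TGF-beta family known from endothelium, gave a like case with an unmoved gene. Probe set 4526476 of Acvrl1 read 10.82, 10.21 and 9.59 in SG, 7.10, 8.35 and 8.12 in HF, and 7.78, 7.60 and 8.46 in IFE. Its gene median lay between 7.44 and 7.54 in SG and between 7.02 and 7.59 on the others. A list of 6 endothelial markers was at a mean log2 level of 6.65 to 6.73 in SG, 6.42 to 6.70 in HF and 6.27 to 6.59 in IFE, and its part in the difference was not tested.

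Elac2, the endonuclease that trims tRNA ends, read 7.63, 8.03 and 7.80 in SG at probe set 5459360, 5.97, 6.11 and 5.89 in HF, and 4.15, 6.30 and 7.28 in IFE, with a gene median within 0.5 of its SG level in both. Kifap3, a subunit of the kinesin-2 motor, read 8.66, 8.98 and 7.60 in SG at probe set 4892632, 7.28, 6.73 and 7.47 in HF, and 5.93, 7.67 and 6.59 in IFE. The signal of Kifap3 overlapped between SG and IFE, and only relative to the gene median, lower in SG by 0.75 and 0.67, did the arrays separate.

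Tgm1, the transglutaminase that crosslinks the cornified envelope, showed the opposite arrangement. Probe set 5413290 of Tgm1 read 8.36, 8.66 and 8.65 in SG, 8.40, 8.23 and 8.40 in HF, and 8.31, 8.08 and 8.23 in IFE. Its gene median read 8.22, 7.31 and 8.98 in SG, 10.33, 9.88 and 10.36 in HF, and 10.54, 10.83 and 10.85 in IFE. All 14 Tgm1 probe sets that were not members were lower in SG by 1 or more, so the member was a probe set that kept its level.

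Myo6, a myosin that moves towards the minus ends of actin filaments, and Nkd2, an inhibitor of Wnt signalling, had members near the top of the array's range. Probe set 5421286 of Myo6 read 12.75, 13.19 and 13.07 in SG, 12.94, 12.27 and 12.72 in HF, and 11.74, 12.04 and 11.77 in IFE. The Myo6 gene median was 7.83, 8.22 and 8.30 in SG and 9.31 to 9.92 on the others, and 27 of its 34 probe sets that were not members were lower in SG by 1 or more. Probe set 4514094 of Nkd2 read 12.98, 13.95 and 13.63 in SG, 13.17, 12.09 and 13.28 in HF, and 11.44, 11.30 and 11.93 in IFE, overlapping between SG and HF, while the gene median was lower in SG than in HF by 1.85 and the same as in IFE.

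The other 5 of the 12 largest higher members were dim by the measure above. Sec62, of the protein translocation machinery of the endoplasmic reticulum, read 4.79, 6.06 and 5.13 in SG at probe set 5175166 and 2.26 to 5.65 on the other arrays. Uvrag, a regulator of autophagy, read 5.46, 4.66 and 6.26 in SG at probe set 4725433 and 2.87 to 4.72 elsewhere. Paxbp1, which binds PAX transcription factors, read 5.15, 5.78 and 4.59 in SG at probe set 5238054 and 2.15 to 4.11 elsewhere. The dim probe sets of Sgk3, a kinase needed for normal hair follicles, and Tjp1, a tight junction protein, read 5.81 to 6.41 and 6.79 to 6.87 in SG, and 3.89 to 5.69 and 6.09 to 6.89 elsewhere. In Sgk3 and Tjp1 the gene median was lower in SG than in both other compartments by more than 1.

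Where a gene had several members, these often pointed in both directions. Of the 134 genes with 2 or more members, 51 held both higher and lower ones, 42 only higher and 41 only lower ones. Members of a gene share its median, and neighbouring probe sets can share an exon, so they are not independent.

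Il4ra, a receptor subunit for interleukins, had the most, 10 of its 19 probe sets. Its gene median read 7.55, 6.96 and 7.56 in SG, 8.82, 8.41 and 8.31 in HF, and 7.91, 8.15 and 7.99 in IFE. The 7 lower members of Il4ra differed in their own log2 signal by between -3.42 and -1.69 from HF or IFE. The 3 higher members differed by between -0.15 and 0.55. The probe set with the largest difference, 4780112, read 4.58, 4.67 and 6.03 in SG, 8.82, 8.41 and 8.31 in HF, and 7.59, 8.15 and 7.99 in IFE. The difference of the Il4ra gene median thus lay between those of its lower members and those of its higher members, which kept their level. On the HF arrays probe set 4780112 was itself the gene median. The 9 other Il4ra probe sets formed no clear groups. Their differences spanned -2.07 to 0.02 against HF and -1.40 to 0.25 against IFE, and 4 of them were lower in SG than in both by 1 or more.

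**Figure D3:**
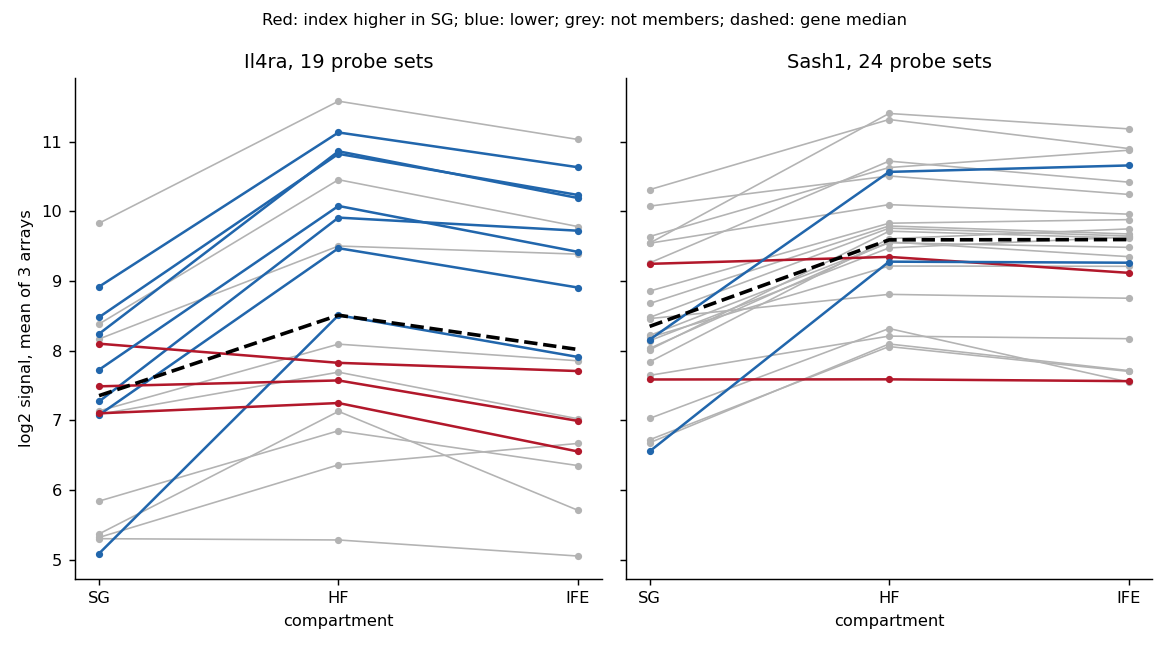
Mean log2 signal over 3 arrays (vertical axis) of every probe set of Il4ra and Sash1 in SG, HF and IFE, each line being a probe set; higher members are red, lower members blue, other probe sets grey, and the dashed line is the gene median. The 7 lower members of Il4ra lie lower in SG than in HF and IFE by 1.69 or more, while its 3 higher members and the 2 higher members of Sash1 run nearly level.

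Sash1, a signalling scaffold, had 2 members in each direction among 24 probe sets. Its lower members were below HF and IFE by 2.41 to 2.72 in log2 signal, and its higher members lay within 0.13 of them. Its gene median was 8.35 in SG, 9.59 in HF and 9.59 in IFE. Prdm1, the transcriptional repressor Blimp1 of sebocytes and differentiating keratinocytes, had 4 members among 12 probe sets. Probe set 5367285 of Prdm1 read 7.85, 6.68 and 8.11 in SG, 10.26, 9.92 and 10.50 in HF, and 9.10, 9.81 and 9.75 in IFE. The 3 lower Prdm1 members were below the other compartments by 1.79 to 2.68 in log2 signal, whereas its higher member, 4985016, was above them by 0.64 to 0.69. That higher member read 8.57, 9.45 and 9.48 in SG and 8.26 to 8.82 elsewhere, which overlapped.

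Dock6 had 4 lower members among 42 probe sets, below HF and IFE by 1.35 to 2.88 in log2 signal. Its gene median was 7.35 in SG, 7.64 in HF and 7.90 in IFE. Atg2b, a lipid transfer protein of autophagy, had 3 lower members and 1 higher member among 52 probe sets. The higher member, 5609652, read 8.54, 8.77 and 8.69 in SG and 7.29 to 7.93 elsewhere, with no overlap. Atg9b, a lipid scramblase of autophagy, had 2 higher members and 1 lower member, the latter at 2.87, 5.90 and 7.40 in SG and 8.42 to 9.55 elsewhere.

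Baz2a, of a chromatin remodelling complex of the nucleolus, had 4 higher members among 37 probe sets, 0.10 to 0.96 above the other compartments in log2 signal while its gene median was 8.23 in SG, 8.93 in HF and 9.26 in IFE. Tmco1, a calcium channel of the endoplasmic reticulum, had 3 higher members. Its probe set 4940657 read 11.34, 11.36 and 11.36 in SG, 10.27, 10.24 and 9.94 in HF, and 10.39, 10.76 and 10.36 in IFE, so the signal itself was higher on each SG array. Psph, the phosphatase that completes serine synthesis, had 3 lower members that kept within 0.32 of their level in the other compartments, while the gene median was 9.96 in SG, 8.35 in HF and 8.13 in IFE and all 7 other Psph probe sets were higher in SG by 1 or more. Tead4, a transcription factor of the Hippo pathway, and Ablim1, an actin-binding protein, each had 2 higher members and 1 lower member. Lower member 4588151 of Ablim1 read 5.46, 4.22 and 6.51 in SG, 7.82, 7.51 and 8.24 in HF, and 8.94, 9.26 and 9.29 in IFE.

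A list of genes whose exons are known to be alternatively used in epithelia had 20 members among 1610 eligible probe sets (1.24%), 9 higher and 11 lower. A list of cytoskeleton and adhesion genes had 17 among 1597 (1.06%), 11 higher and 6 lower. Both shares are near the 0.915% of all eligible probe sets, and nothing particular to these lists is read from them. Both lists hold Tjp1, Dst, Ezr and Epb41l1, so some members count in each.

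Svil, the membrane-linked actin-bundling protein supervillin, had a lower member, 4320505, at 7.46, 7.38 and 7.14 in SG, 9.53, 8.24 and 9.73 in HF, and 9.02, 9.60 and 9.51 in IFE, with a gene median of 7.50 in SG, 7.96 in HF and 8.07 in IFE. Ezr, the membrane-cytoskeleton linker ezrin, read 5.32, 5.80 and 7.07 in SG at member 4662489, 8.19, 8.97 and 8.25 in HF, and 9.41, 9.10 and 8.81 in IFE. Dst, whose isoforms link intermediate filaments and microtubules, had 2 lower members. Its member 4796204 read 6.25, 5.56 and 4.32 in SG, 6.01, 6.59 and 7.37 in HF, and 7.94, 8.75 and 8.92 in IFE, so its signal overlapped with HF. Kif21a, a kinesin, had 2 lower members, of which 4469793 read 4.58, 7.20 and 7.54 in SG and 8.31 to 8.69 elsewhere.

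Sptbn1, a beta spectrin of the membrane skeleton, had a higher member in a gene that kept its level. Probe set 5553725 of Sptbn1 read 9.15, 8.89 and 7.81 in SG, 7.28, 7.08 and 7.14 in HF, and 6.42, 6.38 and 6.49 in IFE. The 3 compartments did not overlap, and the gene median was 9.50 in SG, 9.48 in HF and 9.66 in IFE. Itgav, the alpha V integrin, had 1 lower and 2 higher members, the lower one very dim at 2.77, 2.91 and 2.72 in SG and 4.55 to 5.96 elsewhere.

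Among 672 eligible probe sets of splicing regulators 4 were members (0.595%), all lower, and among 312 of cleavage and polyadenylation factors 1 was (0.321%), against 0.915% of all eligible probe sets; nothing particular to these lists is read from so few. Clk1, a kinase of splicing factors, had 2 of them. Its member 5420215 read 7.19, 6.67 and 7.84 in SG, 9.00, 8.51 and 9.07 in HF, and 9.76, 9.81 and 9.18 in IFE. The Clk1 gene median was 10.45 in SG, 10.77 in HF and 11.57 in IFE. Rbm5, a splicing repressor, read 8.31, 8.22 and 9.02 in SG at member 5531259 and 9.47 to 10.12 elsewhere, while its gene median overlapped. The members of Srsf11, a splicing factor, and Cstf2t, a cleavage factor, were low in SG, at 2.87, 3.43 and 4.22 and at 4.70, 6.07 and 6.25.

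At the gene level, 2 of the 56 measured splicing regulators without members (3.57%) were higher in SG than in HF, and none was lower (called in limma as above). Of all 14543 genes, 1.82% were higher and 3.31% lower. At an unadjusted p under 0.05 in limma, 3 of the 56 were higher and 5 lower. The share of all genes at this unadjusted limit is not given here, so nothing is read from these 2 counts. Rbm47, an RNA-binding protein of epithelia, read 9.09, 8.94 and 8.27 in SG, 7.15, 7.54 and 7.05 in HF, and 7.05, 6.96 and 7.45 in IFE. It was higher than in HF by 1.52 ± 0.24 (SE, n = 3 per group; limma adjusted p = 0.00239) and than in IFE by 1.61 ± 0.24 (limma adjusted p = 0.000701). Khdrbs3, a splicing regulator of the Sam68 family, read 7.63, 7.95 and 7.70 in SG, 6.13, 7.07 and 6.42 in HF, and 6.26, 5.82 and 5.56 in IFE. It was higher than in HF by 1.22 ± 0.25 (limma adjusted p = 0.0101) and than in IFE by 1.88 ± 0.25 (limma adjusted p = 0.000373). Without HF replicate 3, 1 rather than 2 of these regulators was higher in SG than in HF.

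Against IFE, 5 splicing regulators were lower in SG: Esrp1, the epithelial splicing regulator, by 1.10, and Ptbp3, Clk4, Srpk1 and Clk1. Esrp1 read 10.53, 10.72 and 10.87 in SG and 11.68, 11.94 and 11.81 in IFE. Clk1 carries members, so its gene level was used by the rule; of the 56 measured splicing regulators without members, 4 (7.14%) were lower, near the 6.97% of all genes. Of 18 cleavage and polyadenylation factors without members, 3 (16.7%) were lower in SG than in IFE, Cpsf2, Pcf11 and Rbbp6. The lower calls depended on scaling, counted here over all 59 measured splicing regulators and 19 cleavage factors, genes with members included. With quantile normalization 0 splicing regulators and 0 cleavage factors passed in limma, and with median centring 1 and 0, against 5 and 3 without further scaling. At an unadjusted p under 0.05 in limma, 19 of the 56 splicing regulators and 10 of the 18 cleavage factors without members were lower. The share of all genes at that limit is not given here, and the median eligible gene was itself lower in SG than in IFE by 0.30. Nothing particular to these lists is read from these counts. Over the same whole lists, 3 splicing regulators and 0 cleavage factors passed as lower in limma without IFE replicate 2. Without IFE replicate 1 the cleavage factors numbered 5.

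Markers of other cell types gave 10 members. Against 0.915% of all eligible probe sets, the shares were 3 of 37 (8.11%) for melanocytes, 1 of 14 (7.14%) for hair shaft and sheath cells, 2 of 99 (2.02%) for dermal fibroblasts, 1 of 76 (1.32%) for suprabasal epidermis, 1 of 85 (1.18%) for the resting follicle and 2 of 279 (0.717%) for basal keratinocytes. Members of these small lists share genes, and the levels of some lists moved with them. Pmel, a protein of the melanocyte's pigment granule, had a higher member, 5176882, at 10.08, 11.27 and 11.58 in SG, 8.31, 8.94 and 8.86 in HF, and 8.31, 8.25 and 9.10 in IFE. A lower member of Pmel, 4544874, went the other way, at 7.30, 8.00 and 7.53 in SG, 7.91, 8.20 and 7.95 in HF, and 8.73, 8.81 and 8.41 in IFE, with some overlap between SG and HF. The Pmel gene median was 7.37, 8.59 and 9.11 in SG and 6.73 to 7.58 elsewhere. The 8 measured melanocyte markers, which include Pmel and Mitf, had a mean log2 level of 7.02, 7.58 and 7.91 on the SG arrays. It was 7.21 to 7.34 in HF and 6.76 to 7.22 in IFE. The part of the melanocyte markers in the values of both Pmel members was not tested. Mitf, the master regulator of melanocytes, had a higher member, 5589196, at 8.00, 7.22 and 7.54 in SG, 7.52, 7.41 and 7.74 in HF, and 5.36, 6.55 and 5.57 in IFE. The Mitf gene median was 7.58 in SG, 8.92 in HF and 7.26 in IFE. In SG minus HF the member differed by 0.03 and the gene median by -1.35, and in SG minus IFE by 1.76 and 0.31.

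Hoxc13, a hair shaft regulator, had a higher member, 5013456, that was bright and level, at 10.96, 11.19 and 11.68 in SG and 11.37 to 11.65 elsewhere. Its gene median was 7.11, 7.18 and 8.89 in SG and 8.78 to 9.63 elsewhere, so SG replicate 3 had the higher gene level, as it had the higher level of the hair shaft list. Hoxc13 is itself on that list, so these levels are not independent. Collagen genes of dermal fibroblasts had 2 dim members, Col3a1 at 6.23, 5.72 and 5.40 and Col1a2 at 5.68, 6.28 and 6.98 in SG, against 3.58 to 4.46 and 4.84 to 5.50 elsewhere. The 8 fibroblast markers, which include Col3a1 and Col1a2, had a mean log2 level of 7.67 to 8.22 in SG and 7.33 to 7.74 on the other arrays. Their part in the values of the collagen members was not tested.

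Dsc1, a desmosomal cadherin of the upper epidermis, had a lower member, 5228313, at 6.03, 6.35 and 7.26 in SG, 9.38, 9.10 and 9.73 in HF, and 9.91, 11.36 and 10.58 in IFE. All 12 other Dsc1 probe sets were lower in SG by 1 or more. Tcf7l2, a Wnt pathway transcription factor, read 7.85, 7.34 and 7.39 in SG at member 4577786, 8.33, 9.04 and 8.62 in HF, and 8.23, 7.79 and 8.43 in IFE, where SG and IFE overlapped. The lists for immune cells of the epidermis and for muscle held no member among 7 and 38 eligible probe sets, and no endothelial marker gene was eligible.

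Arrays that a choice did not use showed the same direction more often than eligible probe sets did. The rule was applied to 6 arrays, with a replicate number left out of each compartment, and the index was read on the 3 arrays left out. Of the probe sets chosen as higher, 430 of 532 (80.8%), 370 of 473 (78.2%) and 621 of 799 (77.7%) had the highest index on the SG array when replicates 1, 2 and 3 were left out. Over all eligible probe sets the SG array was highest in 36.1%, 39.4% and 34.5%. Of those chosen as lower, 437 of 787 (55.5%), 520 of 797 (65.2%) and 736 of 1309 (56.2%) had the lowest index on the SG array, against 37.1%, 36.0% and 34.3% of all eligible probe sets. The differences shrank in the arrays left out. The SG array was beyond both others by 1 or more in 30.8%, 34.0% and 16.8% of the higher choices and 23.8%, 21.7% and 9.09% of the lower choices, the smallest share being on SG replicate 3 each time. The same was seen in 2.40%, 2.14% and 0.931% of eligible probe sets for higher and 3.82%, 3.29% and 1.51% for lower. Replicate numbers here only name the arrays, and the 3 choices share arrays.

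**Figure D4:**
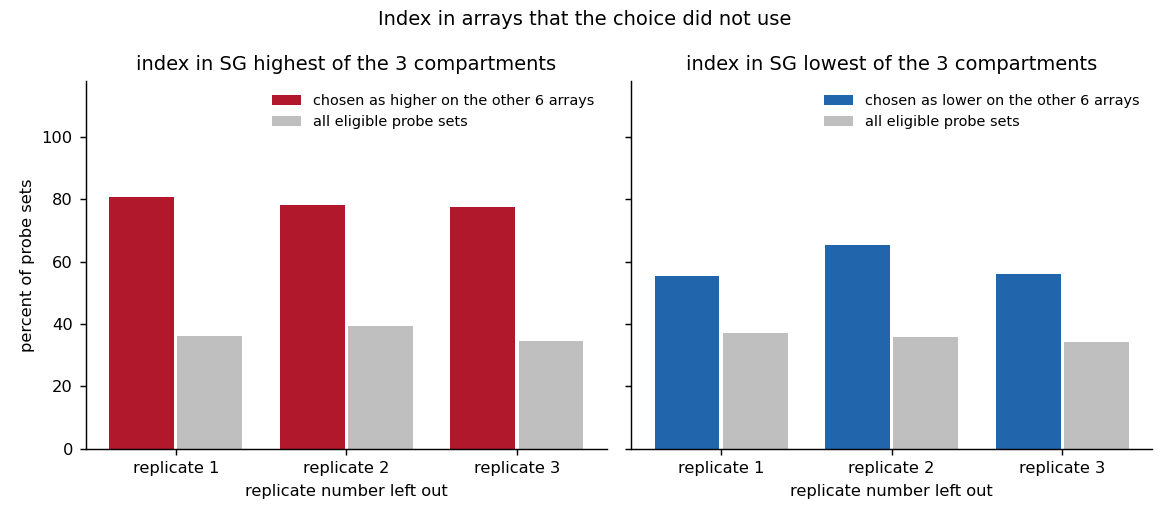
Percent of probe sets (vertical axis) whose index on the left-out arrays was highest (left, red) or lowest (right, blue) in SG, for the probe sets chosen on the other 6 arrays, beside the same percent over all eligible probe sets (grey), by the replicate number left out. The chosen probe sets reach 77.7% to 80.8% on the left and 55.5% to 65.2% on the right, and the grey bars 34.3% to 39.4%.

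The contrast of HF with IFE was not used to choose members and was tested in limma on the index of all 89440 eligible probe sets. Between HF and IFE, 10 of the 818 members (1.22%) differed at a Benjamini-Hochberg adjusted p under 0.05 and a difference of 1 or more, against 343 (0.383%) of all eligible probe sets. The 8 higher members among them had the higher index in HF, as had 0.297% of eligible probe sets, and the 2 lower members had the higher index in IFE, as had 0.0861%. With the letter that ends each array name as a block, limma called 0 members and 0 eligible probe sets (90 and 5906 at an unadjusted p under 0.05), so none of the calls named below held in that fit. The count also depended on single arrays: with the rule and fit repeated it was 1 without HF replicate 1, 5 without HF replicate 2, 0 without HF replicate 3, 5 without IFE replicate 2, 1 without IFE replicate 3 and 16 without SG replicate 3. Over all eligible probe sets it was then 22, 149, 0, 79, 45 and 365, and 177 without IFE replicate 1. Without HF replicate 3, limma gave 88 members and 6920 eligible probe sets at an unadjusted p under 0.05; with all arrays it gave 128 and 9756. The median index difference, HF minus IFE, was 0.27 for the higher and -0.09 for the lower members and 0.00 for all eligible probe sets. The members' differences from HF and from IFE share these arrays.

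Mboat2, an acyltransferase of membrane phospholipids, had the smallest p among the members. The index of its higher member, 5063835, was greater in HF than in IFE by 1.67 ± 0.20 (SE, n = 3 per group; limma adjusted p = 0.00986). The signal itself read 8.20, 7.73 and 8.01 in SG, 7.69, 7.98 and 8.29 in HF, and 7.89, 8.26 and 8.21 in IFE, and overlapped throughout. Its gene median read 7.06, 6.74 and 7.38 in SG, 7.99, 8.48 and 8.33 in HF, and 9.89, 10.14 and 10.17 in IFE, so the gene had 3 separate levels. Sc5d had a gene median in the same order, with means of 7.53 in SG, 8.50 in HF and 9.98 in IFE, but its signal differed. Its member 5200625 read 8.11, 8.45 and 8.12 in SG, 7.69, 7.83 and 7.91 in HF, and 7.73, 7.55 and 7.44 in IFE. The SG arrays of this member lay above all HF and IFE arrays, which overlapped with each other. Its mean signal in SG was higher by 0.41 than in HF and by 0.65 than in IFE. The index of the Sc5d member was greater in HF than in IFE by 1.72 ± 0.26 (limma adjusted p = 0.0272). Daam1, a formin that nucleates actin filaments, was level at 8.89 to 9.24 on all 9 arrays at member 5204074 (HF minus IFE index 1.31 ± 0.20, limma adjusted p = 0.0278).

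In other members the signal had 3 steps while the gene differed by less. Zfp622, a zinc finger protein of ribosome assembly, read 12.38, 12.45 and 12.50 in SG at member 4610757, 10.97, 11.23 and 11.07 in HF, and 9.45, 10.40 and 9.80 in IFE. Its HF minus IFE index was 1.66 ± 0.21 (limma adjusted p = 0.0112), and its gene median was 8.31, 8.47 and 8.51 in SG and 8.24 to 9.37 elsewhere. Dido1, a chromatin-associated protein, read 11.31, 11.19 and 11.26 in SG at member 4421289, 10.56, 10.06 and 10.28 in HF, and 9.30, 9.50 and 9.03 in IFE (HF minus IFE index 1.45 ± 0.22, limma adjusted p = 0.0278). Trim37, a ubiquitin ligase, read 9.92, 9.57 and 10.28 in SG at member 5232186, 8.41, 8.81 and 8.35 in HF, and 7.64, 7.54 and 7.68 in IFE (HF minus IFE index 1.70 ± 0.26, limma adjusted p = 0.0278). In each of these 3 genes the compartments did not overlap in the probe set's own signal.

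The lower members called between HF and IFE were in Mgll and Crat. Mgll probe set 5532896, at 7.74, 7.96 and 8.05 in SG and 6.98 to 7.90 elsewhere, had an index lower in HF than in IFE (difference -2.32 ± 0.31, limma adjusted p = 0.0161). Crat, the carnitine acetyltransferase, had probe set 5311623 at 8.64, 8.65 and 8.30 in SG and 8.28 to 8.69 elsewhere, with a difference of -1.80 ± 0.23 (limma adjusted p = 0.0127). The Crat gene median read 10.35, 10.52 and 10.06 in SG, 9.01, 9.11 and 8.98 in HF, and 6.85, 7.27 and 7.56 in IFE. In both genes the signal of the probe set overlapped among the compartments and the gene median did not. At the gene level, 41 of the 650 genes with members (6.31%) differed between HF and IFE in limma, 17 higher in HF and 24 higher in IFE, against 5.75% of eligible genes; it was 90 genes without SG replicate 3, where the rule gave more members. Of all 14543 genes, 2.98% were higher in HF and 3.36% higher in IFE.

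**Figure D5:**
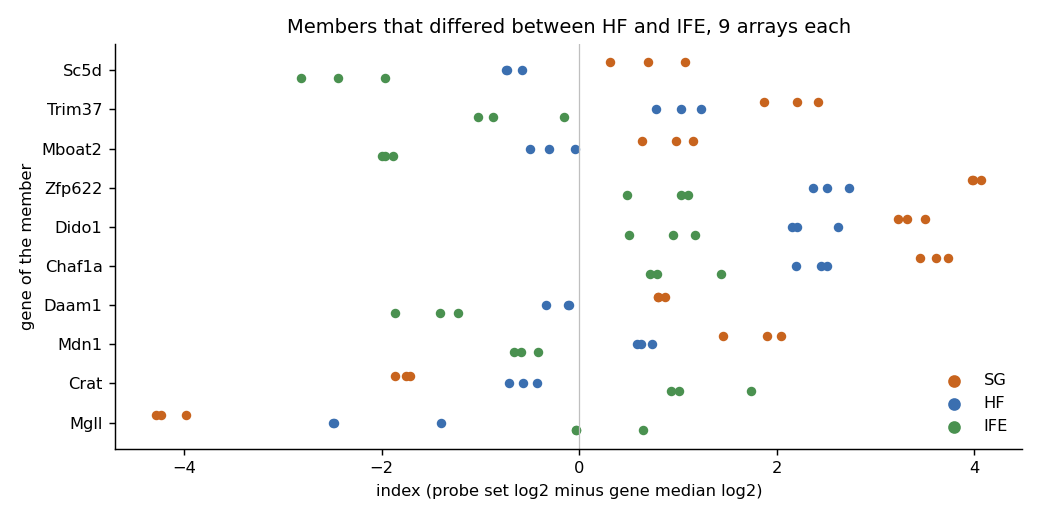
Index (horizontal axis, probe set log2 minus gene median log2) on each of the 9 arrays of the 10 members that differed between HF and IFE, with SG, HF and IFE arrays offset vertically within each gene. The SG values of each member lie beyond the other 6 by the rule, the HF mean lies between the SG and IFE means, and Mdn1 and Chaf1a, which the naming rule leaves out, are shown because the plot holds all 10.

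The same rule applied to the other compartments gave 269 probe sets for HF, 185 higher and 84 lower, in 219 genes, and 641 for IFE, 179 higher and 462 lower, in 481 genes. The 3 choices share the same 9 arrays, so their counts are given side by side and were not tested against each other.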

How the data were processed

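The authors deposited a linear intensity for each probe set and array; per the submitters' processing notes, RMA, Affymetrix Power Tools and mm9 were used, with versions and order not given in the sources used here. Groups followed the sample titles. The log2 of each intensity was taken without further normalization or pseudocount. Gene symbols came from the platform annotation (146964 probe sets with 1 symbol, 1060 with several and 6712 with none), and 1712 symbols were renamed through RefSeq genes on GRCm38, for names alone. Probe sets were grouped by platform symbol, since 34 updated symbols would pool several. All tests across probe sets or genes used limma 3.58.1 (R 4.3.3) on the 9 arrays together, with compartment as the only term and Benjamini-Hochberg adjustment over the whole table, and the code was tested on simulated data. Members and gene lists were chosen with earlier results of these data known. Named were the 12 largest members per direction (1 per gene), up to 12 genes with 3 or more members, up to 8 members called between HF and IFE, up to 8 per gene list, and the 3 on either side of the threshold. The signal over background is unknown, 3 arrays per compartment limit the precision (median SE 0.295 for members' HF minus IFE index), and p-values measure the spread between pooled dissections. The labels give no batch.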

Additional observations from a re-analysis of the deposited data

How the results depend on the processing

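The number of members depended on the thresholds. A gene median of at least 6 gave 1280 members (574 higher, 706 lower) and 8 gave 293 (165 and 128); an index difference of 0.8 gave 1689 (847 and 842) and 1.5 gave 123 (44 and 79). With these gene medians 25 and 3 members and 772 and 111 eligible probe sets differed between HF and IFE, and with 1.5 it was 1 and 204. Without dim probe sets 19 of 676 members and 462 of 78690 eligible probe sets differed between HF and IFE. Without SG replicate 3 and HF replicate 2, a pair chosen after seeing the data, there were 2074 members (764 and 1310), 4 and 169 calls between HF and IFE, and 97 genes. Leaving out each array gave 820 to 2053 members (371 to 803 higher, 427 to 1250 lower), 0 to 16 members and 0 to 379 eligible probe sets called, and 36 to 90 genes; SG replicate 3 gave the highest count of members and of genes, and without SG replicate 2 the lower members numbered 728. The cause was not tested. The replicate number as a block gave 5 and 151 calls; numbers did not pair the arrays (same-number deviations correlated at -0.04 to 0.11, and 3 of 9 arrays correlated best with their own number). A block on the letter that ends each array name gave 0 and 0 in limma (90 and 5906 at an unadjusted p under 0.05), where arrays with a letter of their own added nothing to the contrast. Trend and robust gave 20 and 546, and limma's diffSplice 26 and 803. Quantile normalization gave 873 members, median centring 834, the gene mean as centre 603 and the median of the other probe sets 979. Of 2148 values of named members under these alternatives, 2116 moved by less than their standard deviation, 32 moved by more and 0 reversed.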
